A study of Mus musculus with 12 samples.

Results

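The subject of this report is the difference between 2 genotype effects: how far loss of Zfp366 changed gene expression in type 1 conventional dendritic cells (cDC1), minus how far it did so in type 2 conventional dendritic cells (cDC2). The contrast, called the interaction below, is (cDC1 KO - cDC1 WT) - (cDC2 KO - cDC2 WT) on the log2 scale, and it was taken over all 12 libraries of the series. It was then repeated over 10 libraries, without the 2 cDC2 libraries numbered 1. All libraries came from spleens of female C57/BL6 mice, digested with collagenase and DNAse. The 4 groups were cDC1 of zfp366+/+ mice (WT), cDC1 of zfp366-/- mice (KO), cDC2 of WT mice and cDC2 of KO mice, with 3 libraries each. Age, the nature of the zfp366 allele and the markers used for sorting are not given in the sources used here. Mice were pooled, and each of the 6 pools (3 per genotype) gave 1 cDC1 and 1 cDC2 library. A positive interaction means that the KO level relative to WT was higher in cDC1 than in cDC2, whichever subset moved.

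The product of Zfp366, DC-SCRIPT, is a transcriptional regulator with zinc fingers that dendritic cells make. cDC1 are known for cross-presenting antigens of dead cells to CD8 T cells and for making interleukin 12, and they depend on the transcription factors Irf8 and Batf3. cDC2 are known for presenting antigen to CD4 T cells, depend in part on Irf4 and Notch signalling, and carry Sirpa, Itgam (CD11b) and several C-type lectins. A gene that is low in one subset and high in the other can therefore respond to a lost regulator in one of them alone, and the interaction tests that difference directly.

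The libraries bore their subset's markers. The summed level of 28 genes of a cDC1 signature was 20350 to 24880 CPM (counts scaled to the effective library size) in WT cDC1 and 1886 to 2153 CPM in WT cDC2, while 26 genes of a cDC2 signature summed to 1061 to 1352 CPM in WT cDC1 and 7479 to 8536 CPM in WT cDC2. In KO the cDC1 signature summed to 15260 to 16570 CPM in cDC1 and 1884 to 2260 CPM in cDC2. The cDC2 signature summed to 2925 to 3167 CPM in KO cDC1 and 6607 to 10440 CPM in KO cDC2. In cDC1 neither sum overlapped between KO and WT: the cDC1 sum was lower and the cDC2 sum higher in KO. Total counts ran from 11330503 to 36761685 per library. In each group replicates 2 and 3 lay nearer to each other than either lay to replicate 1: among genes at 5 CPM or more, 0.041% to 4.97% differed at least 2-fold between replicates 2 and 3, and 1.73% to 35.1% between either of them and replicate 1. The widest gap was that of WT cDC1 replicate 1, at 24.2% and 35.1% of 9557 genes. The libraries numbered 1 also had the lowest summed level of erythroid and platelet markers of their group, 33.6, 46.2, 65.6 and 26.1 CPM in WT cDC1, KO cDC1, WT cDC2 and KO cDC2, against 105 to 246 CPM in the libraries numbered 2 and 3, and the part of this in the results was not tested.

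The cDC2 libraries numbered 1 went against their labels. Of 122 genes that differed between KO and WT cDC2 over the 10 libraries, which leave this pair out, 116 (95.1%) differed with the opposite sign in the pair numbered 1. Among 479 genes called and at least 2-fold apart in cDC2 within replicates 2 and 3 alone, 437 (91.2%) did so. In cDC1 the corresponding share was 1173 of 2616 genes (44.8%). These libraries keep the names their labels give them throughout, and values over 12 libraries are given beside those over 10, which leave them out.

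The targeted gene was read first. Zfp366 (gene 238803, chromosome 13, 99184823 to 99247032 of GRCm38) stood at 152, 89.2 and 67.5 CPM in replicates 1, 2 and 3 of WT cDC1 and at 48.8, 48.4 and 45.4 CPM in KO cDC1. In cDC2 it stood at 52.6, 62.4 and 57.4 CPM in the libraries labelled WT and 55.0, 80.6 and 65.1 CPM in those labelled KO. KO and WT did not overlap in cDC1, where every KO library was lower, and overlapped in cDC2. Reads per gene do not show which exons the allele lacks, so they check the labels only in part. The interaction was -1.34 (SE 0.38, adjusted p = 0.144) over 12 libraries and -1.40 (SE 0.42, adjusted p = 0.158) over 10, and passed the threshold in neither. It passed with DESeq2 (-1.39, adjusted p = 0.0299 over 12 and -1.44, adjusted p = 0.0367 over 10), with the mouse pool as a block over 10 libraries (-1.01, adjusted p = 0.00362), over 8 libraries without any numbered 1 (-1.04, adjusted p = 0.0029), and over 10 libraries without WT cDC1 replicate 1 (adjusted p = 0.00314) or replicate 3 (adjusted p = 0.0431).

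Most genes with a different genotype effect over 12 or over 10 libraries rose in KO cDC1. Over 12 libraries the interaction was called (adjusted p below 0.05, edgeR's quasi-likelihood test) for 190 of 13415 genes, 1.42% of those tested; 170 were higher (1.27%) and 20 lower (0.149%). All 170 higher genes rose in cDC1, with median log2 changes of 2.51 in cDC1 and -0.08 in cDC2. Of the 20 lower genes, 19 fell in cDC1 and the remaining one was called in neither subset, with medians of -2.20 in cDC1 and 0.18 in cDC2. In cDC1 alone 714 genes were called (5.32%, with 3.6% higher and 1.72% lower). In cDC2 none was called by edgeR, DESeq2 or limma-voom. In edgeR 271 of the 13415 genes had an unadjusted p below 0.05 in cDC2. That share was below the 0.05 expected where no gene differs.

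Many of the genes with a higher interaction also stood higher in WT cDC2 than in WT cDC1. Among the 170 higher genes, 157 had a higher mean in WT cDC2 than in WT cDC1. For 68 of them all 3 KO cDC1 libraries lay above every WT cDC1 library and below every WT cDC2 library, and for 55 they lay above every WT cDC2 library. In KO mice 82 of the 170 had the higher mean in cDC1. These comparisons of subsets within a genotype share libraries with the contrast that chose the genes, so they describe the genes and test nothing. The same counts were not taken over all genes tested, so no background share stands beside them.

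Without the cDC2 libraries numbered 1 the same comparison gave 336 calls among 13582 genes (2.47%), of which 276 were higher (2.03%) and 60 lower (0.442%). All 190 genes called over 12 libraries kept their sign, and 166 of them (87.4%) were called again, which is 49.4% of the 10-library calls. Genotype changes now appeared in cDC2 as well: 122 genes were called there (0.898%), 63 higher (0.464%) and 59 lower (0.434%), beside 1206 in cDC1 (8.88%; 5.73% higher and 3.15% lower). Of the 276 higher genes, 219 rose in cDC1 alone, 15 rose in cDC1 and fell in cDC2, 11 rose in both, 9 fell in cDC2 alone and 22 were called in neither subset. Of the 60 lower genes, 41 fell in cDC1 alone, 6 rose in cDC2 alone, 2 fell in cDC1 and rose in cDC2, 2 rose in both, 1 fell in both and 8 were called in neither. Among the genes with the largest higher values over 12 libraries, Clec4a2, Clec4b1, Ccl9 and Klrb1b rose in cDC2 as well as in cDC1 over 10 libraries.

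**Figure D1:**
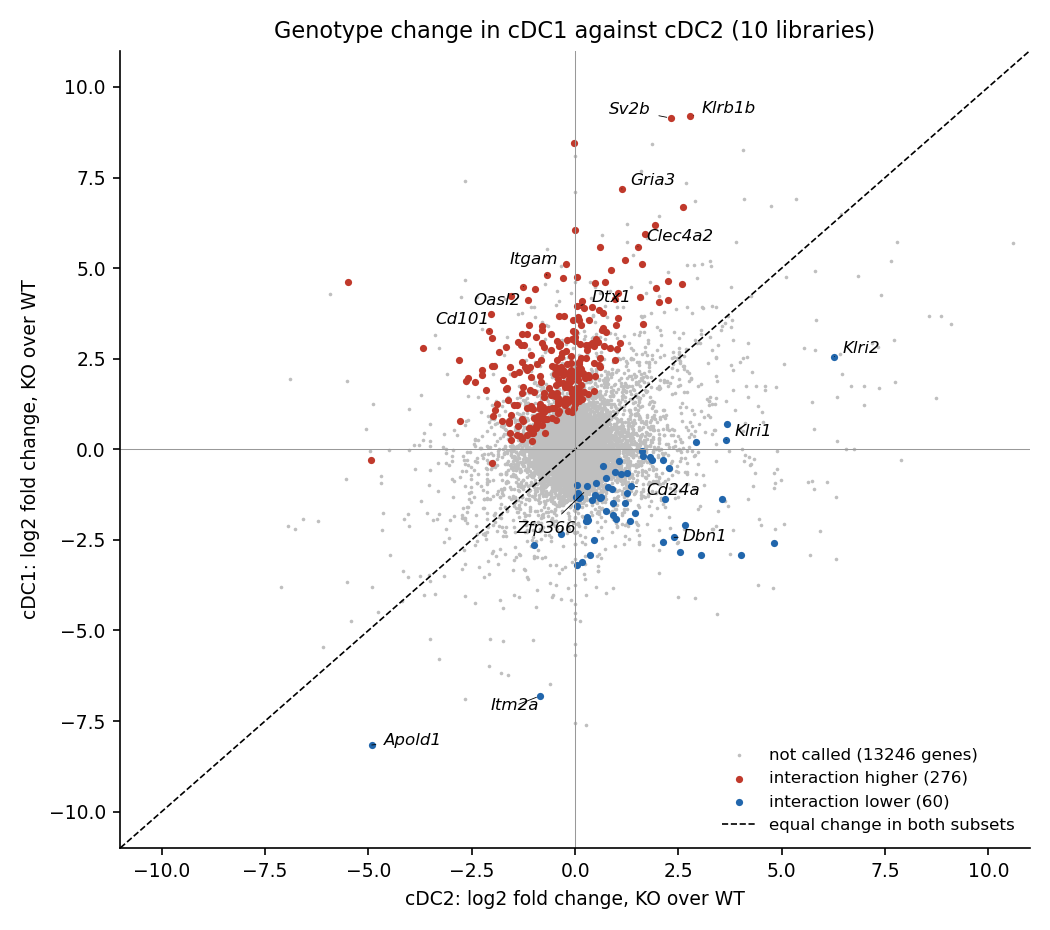
Log2 fold change of KO over WT in cDC2 (horizontal axis) and cDC1 (vertical axis) over 10 libraries, 1 point per gene, with genes called in the interaction in red (276 higher) and blue (60 lower) and the others in grey. Points on the dashed line changed equally in both subsets; most red points lie above 0 in cDC1 and within a few units of 0 in cDC2, with medians of 2.08 and -0.37.

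The number of calls rested on single libraries. With the mouse pool as a block, which uses the tie between the cDC1 and cDC2 library of a pool, 116 genes were called over 12 libraries, of which 101 were among the 190. Over 10 libraries the same block gave 4748 calls; there the cDC1 libraries numbered 1 have no partner and add nothing to the contrast. Leaving out WT cDC1 replicate 1 alone gave 501 calls over 11 libraries and 4869 over 9, 372 and 2672 of them higher. Leaving out all 4 libraries numbered 1 gave 5157 calls among 13461 genes (38.3%; 20.3% higher and 18.1% lower), which included all 190 and all 336, and 6438 calls in cDC1 (47.8%) and 1039 in cDC2 (7.72%; 3.35% higher and 4.37% lower). With 2 libraries per group, that fit takes its spread from replicates 2 and 3, which are the nearest of each group.

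The genes described next were called in both fits unless stated. Dtx1, a ubiquitin ligase and textbook Notch target, shared the smallest adjusted p over 12 libraries with Skint3 and Cd72. Its level was 2.69, 2.04 and 2.72 CPM in WT cDC1 replicates 1, 2 and 3 and 32.6, 42.9 and 41.5 CPM in KO cDC1, against 147, 159 and 194 CPM in WT cDC2 and 229.9, 194 and 195 CPM in KO cDC2. All KO cDC1 libraries lay between those of WT cDC1 and those of cDC2, and the WT and KO libraries of cDC2 overlapped. The interaction of Dtx1 was 3.66 (SE 0.30, adjusted p = 0.000185) over 12 libraries and 3.83 (SE 0.30, adjusted p = 0.000153) over 10.

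Irf4, the interferon regulatory factor on which cDC2 depend, measured 18.5, 12.7 and 10.1 CPM in WT cDC1 and 100, 86.7 and 74.2 CPM in KO cDC1, and 322, 249 and 268 and 281, 214 and 200.4 CPM in WT and KO cDC2. No KO cDC1 library overlapped WT cDC1 or cDC2. The interaction of Irf4 was 2.93 (SE 0.35, adjusted p = 0.00136) over 12 libraries and 2.98 (SE 0.36, adjusted p = 0.00179) over 10. Irf8, which drives cDC1, had 1942, 2276 and 2185 CPM in WT cDC1 and 1418, 1254 and 1249.6 CPM in KO cDC1; its interaction of -0.39 (SE 0.63, adjusted p = 0.932) over 12 libraries and -1.18 (SE 0.31, adjusted p = 0.102) over 10 passed in neither and was -1.31, adjusted p = 0.00091 over the 8 libraries not numbered 1. Itgam, the CD11b integrin chain that marks cDC2, rose from 6.49, 3.57 and 3.35 CPM in WT cDC1 to 128, 127 and 120.4 CPM in KO cDC1. In cDC2 it stood at 90.3, 157 and 147 CPM in WT and 218, 92.4 and 97.4 CPM in KO, where the library labelled KO replicate 1 was the highest and KO replicates 2 and 3 were below WT replicates 2 and 3. The interaction of Itgam was 4.76 (SE 0.53, adjusted p = 0.000842) over 12 libraries and 5.49 (SE 0.39, adjusted p = 0.000128) over 10.

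The cDC2 signature as a list was lopsided in the same way. Of its 26 members 10 were called higher and none lower over 12 libraries, and 15 higher and none lower over 10, with median interactions of 2.23 and 2.00 beside -0.04 and -0.03 over all genes tested. The called shares were 38.5% and 57.7%, beside 1.42% and 2.47% of all genes. In cDC1 16 members rose over 12 libraries and 19 over 10, beside 3.6% and 5.73% of all genes. In cDC2 none was called over 12, and 3 rose and 1 fell over 10, beside 0.464% and 0.434% of all genes. Beside Dtx1, Irf4 and Itgam, members called over both fits included Clec4a2, at 4.07 (SE 0.32, adjusted p = 0.000167) over 10 libraries, and the lectin Cd209a (DC-SIGN family), at 2.25 (SE 0.24, adjusted p = 0.0011). Cx3cr1, the fractalkine receptor, was called over 10 libraries (2.35, SE 0.31, adjusted p = 0.00274) and not over 12 (2.36, SE 0.57, adjusted p = 0.0678). Of 28 members of the cDC1 signature none was called over 12 libraries, and 4 were lower over 10 (Clec9a, Cd24a, Cadm1 and Plpp1; 14.3%, beside 0.442% of all genes), with medians of -0.17 and -0.34. Over the 8 libraries not numbered 1, 12 were lower and 3 higher (53.6% called, beside 38.3% of all genes).

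**Figure D2:**
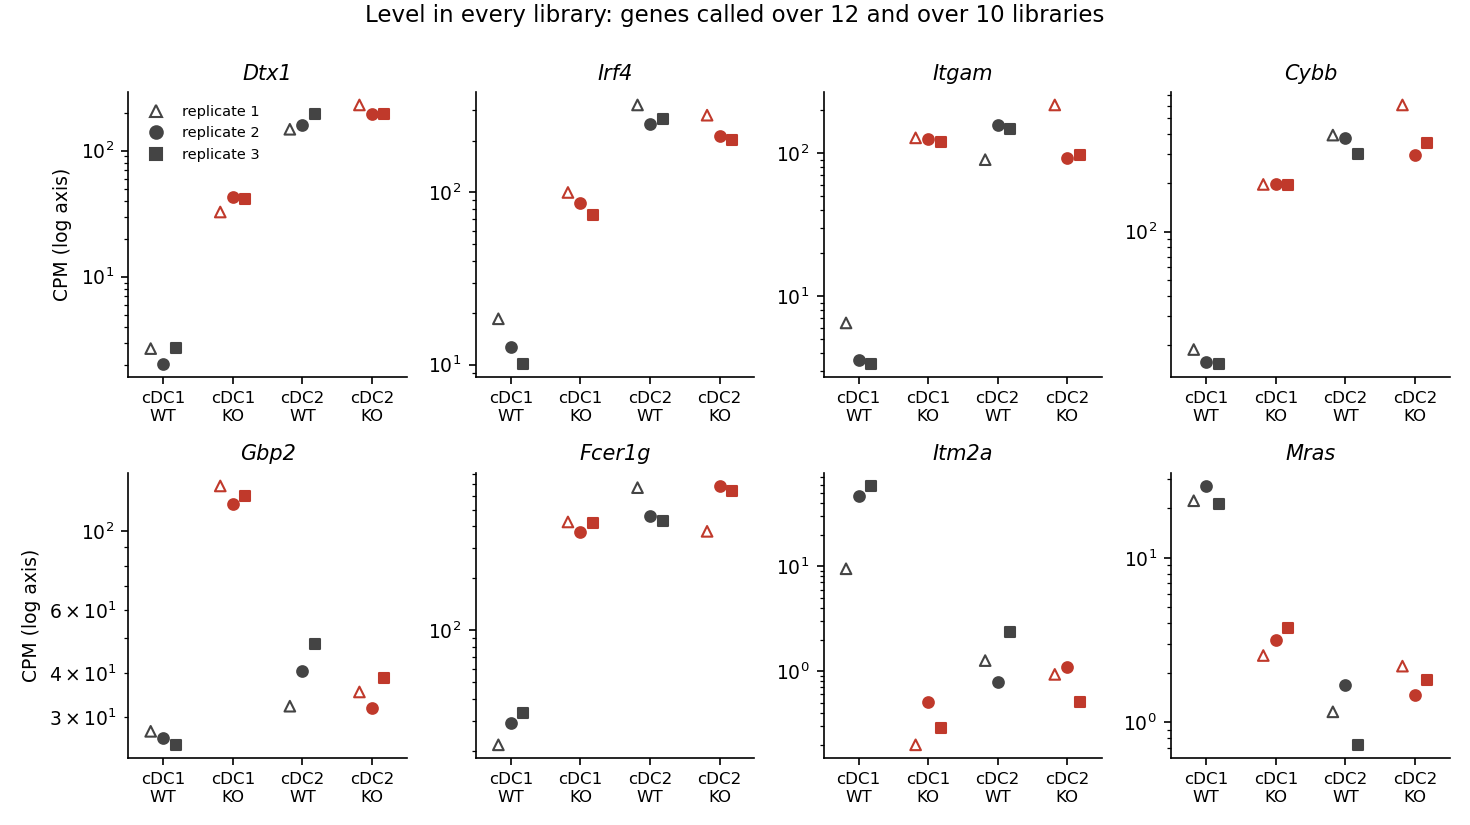
CPM (log axis) in each of the 12 libraries for 8 genes called over 12 and over 10 libraries; triangles, circles and squares are replicates 1, 2 and 3, grey for WT and red for KO. In the first 6 genes every KO cDC1 library lies above every WT cDC1 library, and in Itm2a and Mras below.

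C-type lectin receptors, which bind glycans and other ligands at the cell surface, held some of the largest interactions. Of 29 tested members 8 were called higher and none lower over 12 libraries, and 9 higher and 1 lower (Clec9a) over 10, with medians of 1.37 and 0.96. The called shares were 27.6% and 34.5%, beside 1.42% and 2.47% of all genes tested. Clec4a2 measured 2.75, 4.75 and 4.16 CPM in WT cDC1 and 198, 174 and 189.5 CPM in KO cDC1. In cDC2 it measured 327, 115 and 99.6 CPM in the libraries labelled WT and 100.2, 313 and 303 CPM in those labelled KO, so replicate 1 of each label lay with replicates 2 and 3 of the other. Its interaction was 5.19 (SE 0.71, adjusted p = 0.00244) over 12 libraries; over 10 it rose in both subsets, by 5.59 in cDC1 and 1.52 in cDC2.

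Clec4b1 rose from 1.10, 1.17 and 1.16 CPM in WT cDC1 to 86.0, 77.4 and 86.4 CPM in KO cDC1, and stood at 70.7, 16.3 and 24.0 CPM in WT and 14.0, 79.6 and 73.6 CPM in KO cDC2. The same exchange of replicate 1 was seen. The interaction of Clec4b1 was 5.59 (SE 0.90, adjusted p = 0.00668) over 12 libraries and 4.25 (SE 0.30, adjusted p = 0.000128) over 10. Klrb1b, an inhibitory receptor of the NKR-P1 family, went from 0.440, 0.510 and 0.0578 CPM in WT cDC1 to 253, 178 and 178 CPM in KO cDC1, which no cDC2 library came near: they had 16.7, 0.465 and 1.09 CPM in WT and 0.302, 5.35 and 4.45 CPM in KO. Its interaction was 10.10 (SE 1.78, adjusted p = 0.0119) over 12 libraries, which was not called with the pool block (9.49, adjusted p = 0.0872), and 6.42 (SE 0.76, adjusted p = 0.00179) over 10. Genes of these lectin clusters are close in sequence, and reads that match several copies could be split or dropped in counting.

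Several of the largest interactions belonged to genes nearly silent in WT cDC1. Sv2b, a synaptic vesicle glycoprotein, had 0.165, 0.0510 and 0 CPM in WT cDC1 and 48.1, 40.9 and 43.1 CPM in KO cDC1, with 1.75 CPM or less in every cDC2 library. Gria3, a glutamate receptor subunit, had 0.935, 0.153 and 0.173 CPM in WT cDC1 and 51.4, 67.2 and 66.4 CPM in KO cDC1, and 9.08, 3.49 and 4.01 CPM in WT and 3.37, 7.79 and 8.56 CPM in KO cDC2. The fitted interactions of Sv2b (10.22, SE 1.41, adjusted p = 0.00265) and Gria3 (6.95, SE 0.82, adjusted p = 0.00119) over 12 libraries depend on how low counts are smoothed and are no measured folds. Over 10 libraries Sv2b had 6.82 (SE 1.47, adjusted p = 0.0427), and its call was lost in 8 of 21 alternatives, with a lowest value of 2.71 without WT cDC2 replicate 2. Gria3 had 6.05 (SE 0.68, adjusted p = 0.00131) over 10. The 12-library call of Sv2b did not hold without the library labelled cDC2 WT replicate 1 (adjusted p = 0.0833). Skint3, a butyrophilin-like gene, was higher in absolute terms: 12.6, 6.89 and 7.98 CPM in WT cDC1 became 463, 465 and 389 CPM in KO cDC1, above all 6 cDC2 libraries, and its interaction was 5.50 (SE 0.47, adjusted p = 0.000185) over 12 libraries and 4.99 (SE 0.38, adjusted p = 0.000153) over 10. Cd163, a haemoglobin scavenger receptor and macrophage marker, had 1.15, 1.38 and 1.56 CPM in WT cDC1 and 27.4, 25.4 and 24.6 CPM in KO cDC1, with at most 9.93 CPM in cDC2, and an interaction of 5.32 (SE 0.60, adjusted p = 0.000842) over 12 libraries and 5.79 (SE 0.56, adjusted p = 0.000583) over 10. Spon1 (5.99, SE 0.75, adjusted p = 0.00154), Lifr (4.95, SE 0.60, adjusted p = 0.00138) and Pla2g7 (4.62, SE 0.61, adjusted p = 0.00184) followed the same course over 12 libraries, and over 10 they had 6.06 (SE 0.60, adjusted p = 0.000656), 5.38 (SE 0.52, adjusted p = 0.000586) and 5.25 (SE 0.48, adjusted p = 0.000469). Abca6 (6.13 (SE 1.30, adjusted p = 0.0364) over 12, 4.07 (SE 0.89, adjusted p = 0.0451) over 10) lost its 12-library call with the pool block (5.71, adjusted p = 0.0999).

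Of 24 tested members of the cross-presentation list 4 were higher over 12 libraries, among them Cybb, the catalytic subunit of the phagocyte NADPH oxidase, Fcer1g, the common chain of Fc receptors, and Fcgr2b, the inhibitory Fc receptor. Over 10 libraries the same 4 were higher and Clec9a was lower, and the list's medians were 0.00 and 0.12. The called shares were 16.7% over 12 and 20.8% over 10, beside 1.42% and 2.47% of all genes. Cybb measured 18.6, 15.6 and 15.2 CPM in WT cDC1 and 196, 196 and 194 CPM in KO cDC1, and 395, 377 and 299.7 and 606, 299 and 353 CPM in WT and KO cDC2. Its interaction was 3.33 (SE 0.37, adjusted p = 0.000842) over 12 libraries and 3.62 (SE 0.27, adjusted p = 0.000129) over 10. Fcer1g measured 21.7, 29.2 and 33.4 CPM in WT cDC1 and 424, 373 and 416 CPM in KO cDC1, with an interaction of 3.72 (SE 0.40, adjusted p = 0.000842) over 12 libraries and 3.27 (SE 0.30, adjusted p = 0.000465) over 10.

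Interferon-stimulated genes had the largest share of calls over 10 libraries among the 23 lists. These genes are switched on by interferons through the ISRE, a promoter element bound by interferon regulatory factors. Of 32 members 9 were called higher and none lower over 12 libraries (28.1%), and 20 higher and none lower over 10 (62.5%), with median interactions of 2.02 and 2.64. Among all genes tested 1.27% and 2.03% were called higher. Over 10 libraries 21 members rose in cDC1 and 4 fell in cDC2 by the test, and the fitted change in cDC2 was below 0 for 28 of the 32, with a median of -0.96. The 4 were Mx2, Oasl1, Oasl2 and Ifih1. Among all genes tested 5.73% rose in cDC1 and 0.434% fell in cDC2 over 10 libraries, and the median fitted change in cDC2 was 0.03. Leaving out the cDC2 libraries numbered 1 moved the count of higher calls from 9 to 20, and leaving out all 4 libraries numbered 1 moved it to 29 higher and 1 lower, in a fit that called 20.3% of all genes higher and 18.1% lower.

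Oasl2, an oligoadenylate synthetase-like protein, measured 2.36, 2.55 and 2.20 CPM in WT cDC1 and 40.7, 61.4 and 58.3 CPM in KO cDC1. In cDC2 it measured 10.4, 37.7 and 34.6 CPM in WT and 31.2, 15.5 and 14.8 CPM in KO. KO cDC1 was higher than WT cDC1 in all libraries, while in cDC2 replicates 2 and 3 were lower in KO and replicate 1 was lower in the library labelled WT. The interaction of Oasl2 was 4.91 (SE 0.63, adjusted p = 0.0017) over 12 libraries and 5.74 (SE 0.33, adjusted p = 4.29e-05) over 10, where it rose by 4.49 in cDC1 and fell by 1.25 in cDC2. Gbp2, an interferon-induced GTPase, had 27.4, 26.2 and 25.1 CPM in WT cDC1, 134, 119 and 126 CPM in KO cDC1, 32.2, 40.5 and 48.3 CPM in WT cDC2 and 35.3, 31.8 and 38.6 CPM in KO cDC2. The 3 KO cDC1 libraries of Gbp2 lay above the other 9, and the interaction was 2.46 (SE 0.27, adjusted p = 0.000842) over 12 libraries and 2.60 (SE 0.25, adjusted p = 0.000564) over 10. Ifih1 (MDA5), a sensor of double-stranded RNA, had 32.9, 29.2 and 29.9 CPM in WT cDC1 and 53.5, 53.7 and 59.9 CPM in KO cDC1, and 24.9, 71.8 and 65.9 CPM in WT and 76.9, 31.0 and 38.3 CPM in KO cDC2. It was called over 10 libraries (1.85, SE 0.25, adjusted p = 0.00332) and not over 12 (1.01, SE 0.54, adjusted p = 0.647). Ddx58 (RIG-I), the related sensor, was called over both, at 3.14 (SE 0.53, adjusted p = 0.00935) over 12 libraries and 3.76 (SE 0.45, adjusted p = 0.00185) over 10, though not over 12 with the pool block (3.24, adjusted p = 0.102). Oas3 was called over both as well, at 5.30 (SE 0.70, adjusted p = 0.00189) over 12 and 4.24 (SE 0.47, adjusted p = 0.0013) over 10. Oas2 was called over 10 alone, at 5.09 (SE 0.73, adjusted p = 0.00531) beside 4.63 (SE 1.34, adjusted p = 0.15) over 12.

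**Figure D3:**
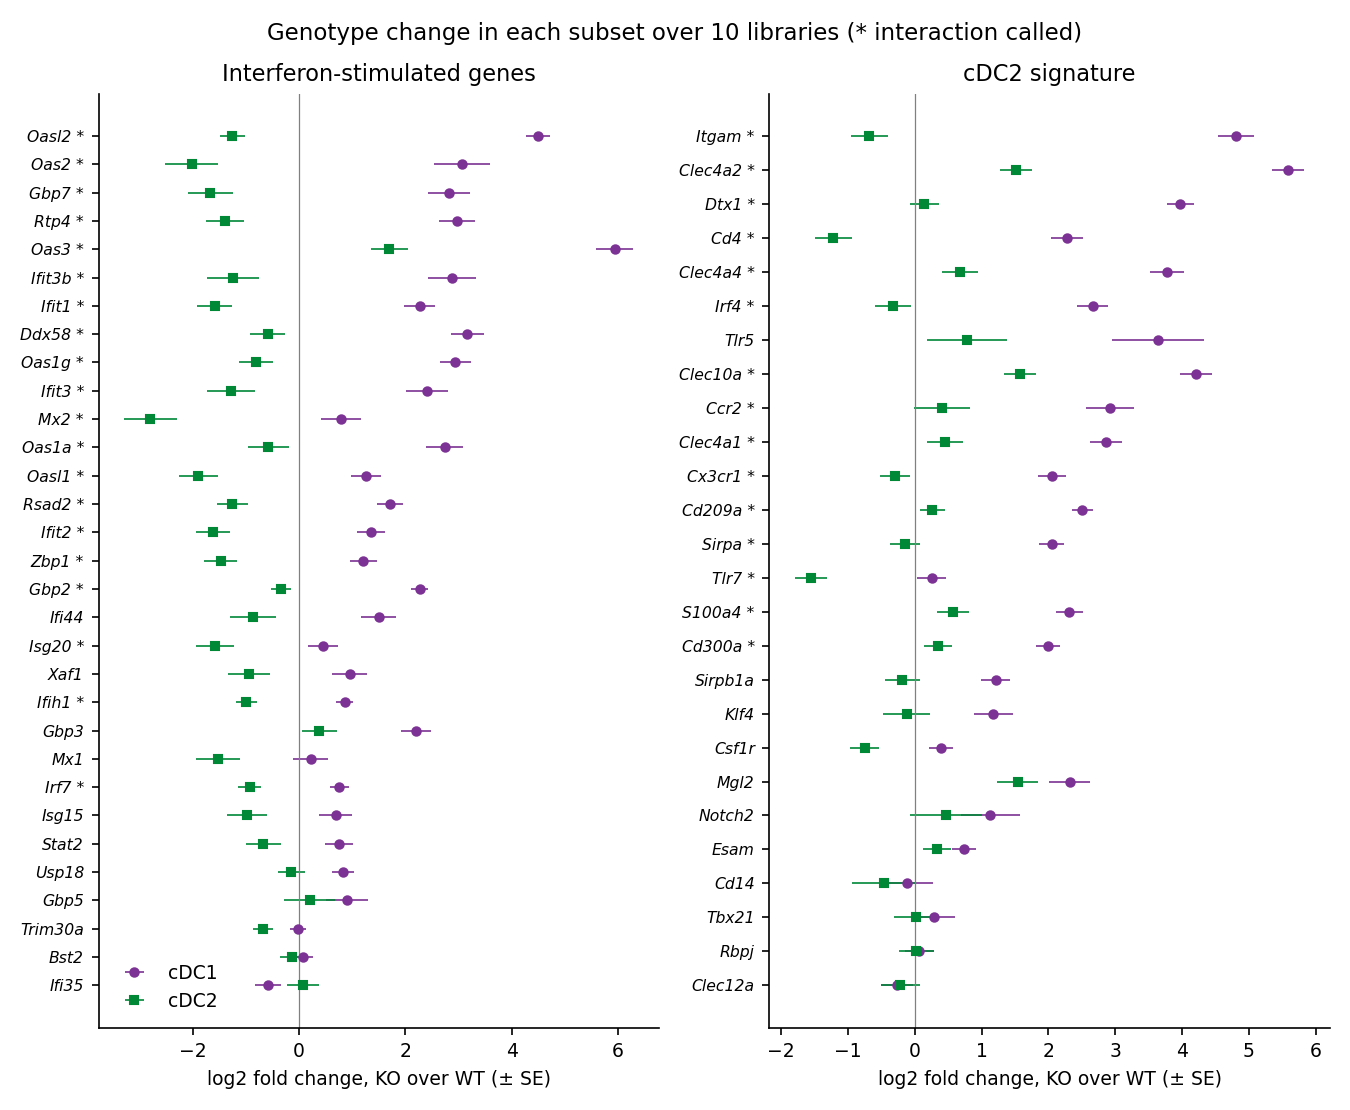
Log2 fold change of KO over WT (points, with bars of 1 SE) in cDC1 (purple circles) and cDC2 (green squares) over 10 libraries for interferon-stimulated genes (1 of the 32 is not drawn) and 26 genes of the cDC2 signature, ordered by interaction; stars mark interaction calls. In the first list most cDC2 points lie below 0 and most cDC1 points above 0 (28 and 30 of all 32 members); in the second the cDC1 points lie above 0 for 24 of 26 and the cDC2 points on both sides.

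Promoter sequences are shown for 4 genes called higher over 10 libraries, because the letters of this element were found in a larger share of the windows of higher genes than of all genes tested; they come from RefSeq on GRCm38.p6 and cover the 250 bases before the annotated start, 5′ to 3′ on the gene's strand. Capitals mark matches to the core letters of the ISRE (GAAA, any 2 bases, then GAAA) or to TGANTCA (AP-1, the site of Fos and Jun proteins), on either strand. The windows are Cybb at chrX:9469325-9469574 (minus strand), Gbp2 at chr3:142620413-142620662 (plus), Ifit3 at chr19:34583279-34583528 (plus) and Clec4b1 at chr6:123049712-123049961 (plus).
Cybb: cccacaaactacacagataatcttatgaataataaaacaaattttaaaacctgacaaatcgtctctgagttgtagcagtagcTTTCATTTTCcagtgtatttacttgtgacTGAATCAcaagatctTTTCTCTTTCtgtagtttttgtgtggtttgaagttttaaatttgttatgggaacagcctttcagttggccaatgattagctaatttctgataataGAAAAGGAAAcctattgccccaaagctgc
Gbp2: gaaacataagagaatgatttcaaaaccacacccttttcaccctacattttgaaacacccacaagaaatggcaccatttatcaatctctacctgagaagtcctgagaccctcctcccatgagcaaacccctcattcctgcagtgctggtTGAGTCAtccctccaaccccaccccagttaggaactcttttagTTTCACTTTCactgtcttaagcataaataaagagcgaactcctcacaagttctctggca
Ifit3: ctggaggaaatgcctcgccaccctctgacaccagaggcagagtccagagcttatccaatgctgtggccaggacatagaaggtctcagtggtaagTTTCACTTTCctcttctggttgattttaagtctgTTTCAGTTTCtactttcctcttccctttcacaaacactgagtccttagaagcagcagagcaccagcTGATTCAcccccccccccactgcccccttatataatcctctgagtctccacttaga
Clec4b1: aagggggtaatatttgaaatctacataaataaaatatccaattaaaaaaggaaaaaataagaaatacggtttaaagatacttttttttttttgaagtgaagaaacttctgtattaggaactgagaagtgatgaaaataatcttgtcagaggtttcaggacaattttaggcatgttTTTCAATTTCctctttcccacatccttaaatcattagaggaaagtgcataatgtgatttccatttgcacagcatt
The Cybb window held 3 matches to the first motif and 1 to AP-1, that of Ifit3 held 2 and 1, that of Gbp2 1 and 1, and that of Clec4b1 1 and none.

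Windows were found for 10201 of the 13582 genes tested over 10 libraries, 12885 windows in all. The ISRE letters stood in 368 of them (2.86%), in 42 of 258 windows of genes called higher over 10 libraries (16.3%) and in none of 56 windows of genes called lower. Over 12 libraries they stood in 21 of 159 windows of higher genes (13.2%). TGANTCA stood in 585 of all 12885 windows (4.54%), in 31 of the 258 (12%) and in 2 of the 56 (3.57%). The composite site of ETS factors with Irf4 or Irf8 (GGAA, any 2 bases, then GAAA) stood in 256 of all windows (1.99%) and in 7 of the 258 (2.71%). Among the 159 windows of genes higher over 12 libraries, TGANTCA stood in 23 (14.5%) and the composite in 8 (5.03%). The ISRE letters were also in 15 of 30 windows of the interferon-stimulated list (50.0%), which holds part of the higher genes. These are shares of letters in a window and show no binding.

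Genes with a lower interaction were fewer over 12 and over 10 libraries. The balance moved with the libraries kept. Without all 4 libraries numbered 1, 2727 genes were higher and 2430 lower. Without WT cDC1 replicate 1 and the cDC2 libraries numbered 1, 2672 were higher and 2197 lower. Over 12 libraries 19 of the 20 fell in KO cDC1, and 4 of the 20 had a higher mean in WT cDC2 than in WT cDC1. The WT libraries are part of the contrast that chose these genes, so the count of 4 describes them and tests nothing. It was not taken over all genes tested. Itm2a, a membrane protein, went from 9.46, 46.2 and 58.2 CPM in WT cDC1 to 0.199, 0.513 and 0.287 CPM in KO cDC1, and was at most 2.37 CPM in every cDC2 library. WT cDC1 replicate 1 was the lowest of its group and still above all KO libraries. The interaction of Itm2a was -6.09 (SE 0.94, adjusted p = 0.00514) over 12 libraries and -5.96 (SE 1.19, adjusted p = 0.0281) over 10. Mras, a small GTPase related to Ras, fell from 22.3, 27.4 and 21.3 to 2.55, 3.16 and 3.73 CPM in cDC1, with at most 2.19 CPM in cDC2 and an interaction of -3.49 (SE 0.44, adjusted p = 0.00164) over 12 libraries and -3.27 (SE 0.48, adjusted p = 0.00566) over 10. Icos, a costimulatory receptor best known on T cells, stood at 29.4, 15.9 and 16.0 CPM in WT cDC1 and 5.81, 4.94 and 4.87 CPM in KO cDC1 but was level in cDC2, at 35.6, 30.7 and 23.7 and 31.5, 31.5 and 33.7 CPM, with -2.07 (SE 0.37, adjusted p = 0.0136) over 12 libraries and -2.23 (SE 0.41, adjusted p = 0.0195) over 10. Slc11a1 (NRAMP1), a metal transporter of phagosomes, fell from 96.5, 152 and 149 to 21.1, 19.5 and 22.4 CPM in cDC1 and had -1.93 (SE 0.33, adjusted p = 0.0106) over 12 libraries and -1.65 (SE 0.32, adjusted p = 0.025) over 10. Tpm2 was lower over both fits, at -3.25 (SE 0.56, adjusted p = 0.0103) and -3.28 (SE 0.65, adjusted p = 0.027), as was Ubtd2, at -2.05 (SE 0.34, adjusted p = 0.00812) and -2.16 (SE 0.31, adjusted p = 0.00459). Ltbp2 was too, at -3.36 (SE 0.50, adjusted p = 0.00419) and -3.23 (SE 0.56, adjusted p = 0.0141), though over 12 not with the pool block (-3.26, adjusted p = 0.0589).

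Some lower calls did not carry over: Bst1, Cbr3, Spry1 and Adam8 were called over 12 libraries and not over 10. Bst1, an ADP-ribosyl cyclase, had -2.94 (SE 0.65, adjusted p = 0.0478) over 12 and -2.34 (SE 0.68, adjusted p = 0.144) over 10, Cbr3, a carbonyl reductase, -2.91 (SE 0.55, adjusted p = 0.0175) and -2.44 (SE 0.57, adjusted p = 0.0603), and Spry1, an inhibitor of receptor tyrosine kinase signalling, -2.71 (SE 0.56, adjusted p = 0.0334) and -2.12 (SE 0.48, adjusted p = 0.0513). Adam8, a metalloprotease, had -1.97 (SE 0.41, adjusted p = 0.0355) and -1.59 (SE 0.41, adjusted p = 0.0955). With the pool block the 12-library calls of Spry1 (-2.64, adjusted p = 0.101) and Adam8 (-1.88, adjusted p = 0.183) did not pass.

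Dbn1, which encodes the actin-binding protein drebrin, had the smallest interaction p over 10 libraries. It stood at 197, 197 and 171 CPM in WT cDC1 and 31.4, 36.1 and 37.2 CPM in KO cDC1. In cDC2 it stood at 21.2, 6.23 and 6.92 CPM in the libraries labelled WT and 8.69, 35.6 and 33.4 CPM in those labelled KO. WT and KO did not overlap in cDC1; in cDC2 replicates 2 and 3 were higher in KO, and replicate 1 was higher in the library labelled WT. Dbn1 fell by 2.43 in cDC1 and rose by 2.40 in cDC2 over 10 libraries, an interaction of -4.83 (SE 0.26, adjusted p = 4.08e-05). Over 12 libraries it was -3.60 (SE 0.72, adjusted p = 0.0282), a call lost with the pool block (-3.62, adjusted p = 0.0737). Cd24a, a glycoprotein higher on cDC1 than on cDC2, was the other gene that fell in cDC1 and rose in cDC2, from 478, 563 and 598 to 309, 249 and 251 CPM in cDC1 and with 97.7, 31.7 and 20.5 CPM in WT and 53.5, 63.6 and 70.7 CPM in KO cDC2. Its interaction was -2.38 (SE 0.32, adjusted p = 0.00332) over 10 libraries and -1.34 (SE 0.61, adjusted p = 0.511) over 12, where it was not called.

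Cd101, an inhibitory immunoglobulin-family receptor, was the converse among the 15 genes that rose in cDC1 and fell in cDC2 over 10 libraries. It had 0.935, 1.02 and 0.463 CPM in WT cDC1 and 8.63, 6.91 and 7.98 CPM in KO cDC1, but 11.4, 25.2 and 25.5 CPM in WT and 39.4, 6.22 and 5.79 CPM in KO cDC2. The library labelled cDC2 KO replicate 1 was the highest of all and KO replicates 2 and 3 the lowest of cDC2. The interaction of Cd101 was 5.34 (SE 0.42, adjusted p = 0.000158) over 10 libraries and 3.53 (SE 0.95, adjusted p = 0.112) over 12, where it was not called. Oasl2 and Ifih1, described above, were also in this group, as was Oasl1 (3.15, adjusted p = 0.00566). S100a10 (4.31, adjusted p = 0.000174), Ptger3 (4.34, adjusted p = 0.000128) and Tnfsf14 (4.42, adjusted p = 0.00257) belonged to it too; they were chosen after their values were seen.

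Genes that changed in the same direction in both subsets, by different amounts, were called over 10 libraries, where cDC2 had calls at all. Of 46 genes that rose in both subsets, 13 were called in the interaction; of 23 that fell in both, 1 was. That gene was Apold1, an endothelial stress gene, at 346, 229 and 189 CPM in WT cDC1 and 0.796, 0.711 and 1.15 CPM in KO cDC1, and at 0.806, 31.7 and 28.8 CPM in the cDC2 libraries labelled WT and 47.6, 1.09 and 0.881 CPM in those labelled KO. The KO libraries were the low ones in cDC1 and in replicates 2 and 3 of cDC2; in replicate 1 of cDC2 the low library was the one labelled WT. Its interaction was -3.24 (SE 0.44, adjusted p = 0.00388) over 10 libraries and -7.87 (SE 2.01, adjusted p = 0.0882) over 12, where it was not called. Klri2, a killer-cell lectin-like receptor, had 2.69, 4.23 and 5.67 CPM in WT cDC1 and 29.6, 22.7 and 21.7 CPM in KO cDC1, and 72.4, 1.35 and 0.729 CPM in WT and 1.34, 82.3 and 87.3 CPM in KO cDC2. It rose more in cDC2 than in cDC1 over 10 libraries (-3.72, SE 0.48, adjusted p = 0.00296), whereas the fitted sign over 12 was positive and not called (1.37, SE 1.91, adjusted p = 0.917). Klri1, its neighbour and partner in sequence, is not among the genes that changed in both, since over 10 libraries it rose in cDC2 alone. It had 52.4, 103 and 117 CPM in WT and 109, 107 and 111 CPM in KO cDC1, which overlapped. In cDC2 it had 324, 29.8 and 30.3 CPM in WT and 24.0, 364 and 391 CPM in KO. The interaction of Klri1 was -3.39 (SE 0.41, adjusted p = 0.00207) over 10 libraries and -0.75 (adjusted p = 0.939) over 12, where it was not called.

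**Figure D4:**
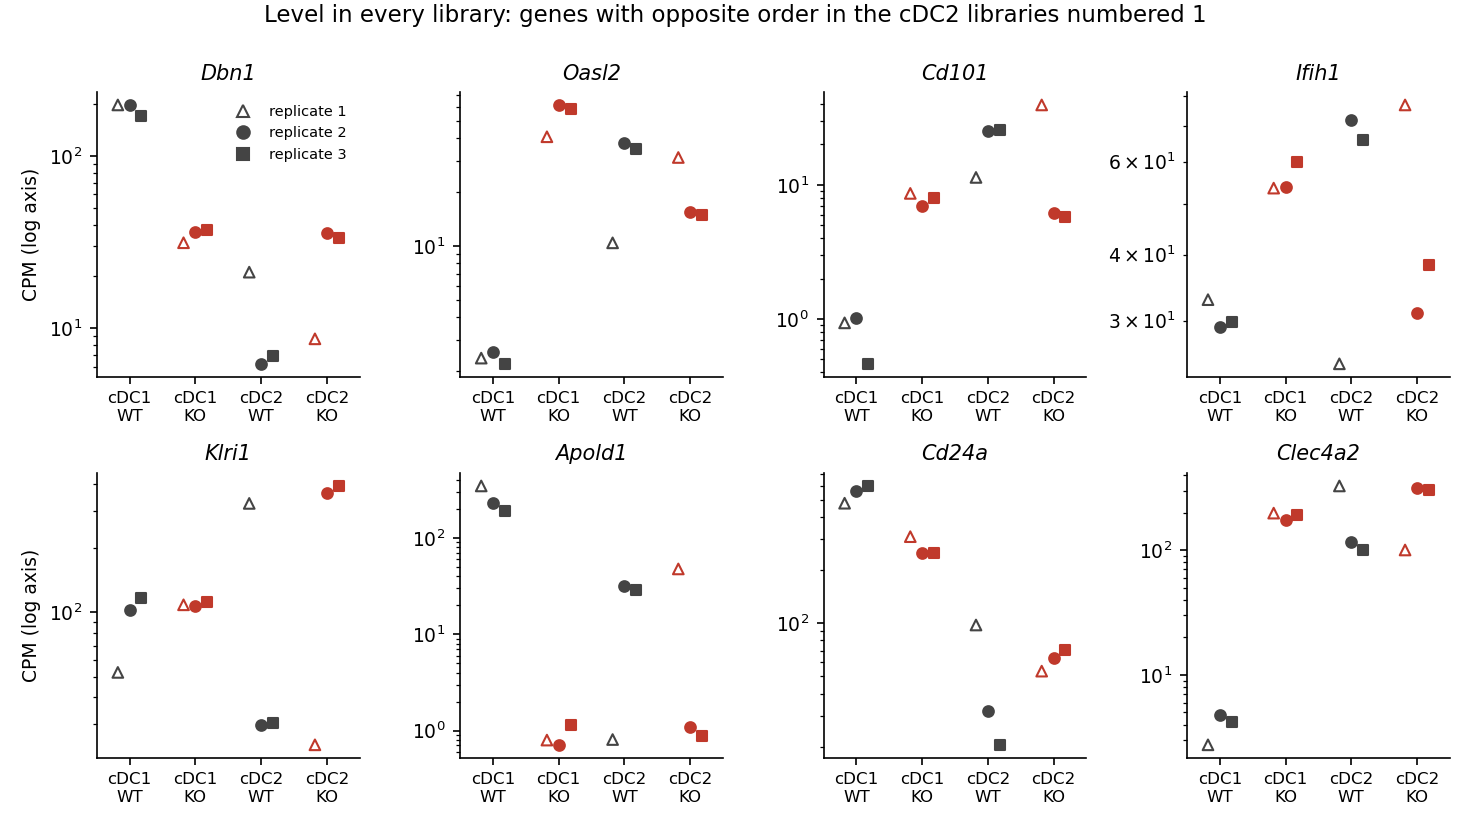
CPM (log axis) in each of the 12 libraries for 8 genes in which the cDC2 libraries numbered 1 (open triangles) have the opposite order of KO (red) and WT (grey) from replicates 2 and 3 (filled circles and squares). In cDC1 KO and WT do not overlap in 7 of the genes and overlap in Klri1.

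Fndc5 (-5.37, SE 0.69, adjusted p = 0.00264), Cltrn (-4.76, SE 0.80, adjusted p = 0.0114), Morn1 (-4.70, SE 0.84, adjusted p = 0.016), Ttc39a (-3.54, SE 0.65, adjusted p = 0.0174) and Tubb2b (-3.29, SE 0.60, adjusted p = 0.0172) were also lower over 10 libraries alone. Each was higher in WT cDC1 than in WT cDC2 replicates 2 and 3 and fell in KO cDC1. Ttc39a, for one, went from 136, 168 and 157 to 55.3, 61.1 and 61.0 CPM in cDC1 and was at most 2.24 CPM in cDC2, so its fitted cDC2 change rests on few reads. Hs3st1, a heparan sulfate sulfotransferase, was higher over 10 libraries (5.28, SE 0.87, adjusted p = 0.0104) with cDC2 levels of at most 1.37 CPM.

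Of 32 transcription factors of dendritic cells in the list 2 were higher over 12 libraries (6.25%, beside 1.27% of all genes), Irf4 and Irf1 (1.48 (SE 0.31, adjusted p = 0.0334); over 10 1.73 (SE 0.26, adjusted p = 0.00584)), and 3 over 10 (9.38%, beside 2.03%), with Irf7 (1.69, SE 0.28, adjusted p = 0.0102) added. The medians were 0.42 and 0.54, and over the 8 libraries not numbered 1 the count was 21 higher and 1 lower (68.8% called, beside 38.3% of all genes). Irf1 lost its 12-library call with the pool block (1.44, adjusted p = 0.118). Zeb2, which represses the cDC1 fate, measured 5.06, 1.58 and 1.5 CPM in WT cDC1 and 10, 12.6 and 11.5 CPM in KO cDC1, and its interaction was 2.02 (SE 0.67, adjusted p = 0.234) over 12 libraries, 2.38 (SE 0.60, adjusted p = 0.0844) over 10 and 3.25, adjusted p = 3.79e-06 over 8. Nfil3 and Bcl6 were 1.12 (SE 0.50, adjusted p = 0.348) and 0.80 (SE 0.46, adjusted p = 0.454) over 10 libraries. Batf3 (-0.17, SE 0.30, adjusted p = 0.795), Id2 (-0.05, SE 0.25, adjusted p = 0.942), Zbtb46 (-0.05, SE 0.31, adjusted p = 0.953) and Il12b, the p40 chain of interleukin 12 (-0.49, SE 0.86, adjusted p = 0.8), were not called over 10 libraries either, and the fitted sign of these 4 changed with the processing. Il12b had 224, 45.8 and 45.7 CPM in WT cDC1 and 60.8, 68.0 and 54.8 CPM in KO cDC1, where WT replicate 1 alone stood high.

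Cytokines, receptors and signalling genes gave a few calls each, nearly all higher. Among the calls of all genes 89.5% were higher over 12 libraries and 82.1% over 10. Among 28 cytokines and chemokines 3 were higher over 12 libraries and 6 over 10, none lower. These were 10.7% and 21.4% of the list, beside 1.27% and 2.03% of all genes called higher. Ccl9, a macrophage chemokine, led with 4.62, 3.88 and 3.30 CPM in WT cDC1, 159, 144 and 139 CPM in KO cDC1, 205, 77.8 and 89.3 CPM in WT cDC2 and 65.9, 199 and 185 CPM in KO cDC2, an interaction of 4.95 (SE 0.62, adjusted p = 0.00154) over 12 libraries and 4.03 (SE 0.27, adjusted p = 0.000112) over 10. Ltb, lymphotoxin beta, had 2.30 (SE 0.31, adjusted p = 0.00189) over 12 libraries and 2.07 (SE 0.29, adjusted p = 0.00421) over 10. Ccl3 passed over 10 alone, at 2.18 (SE 0.28, adjusted p = 0.00249) beside 1.74 (SE 0.45, adjusted p = 0.0966) over 12. Among 19 chemokine and migration receptors Gpr183 (EBI2), which positions cDC2 in the spleen, was the 1 called over 12 libraries (3.19, SE 0.56, adjusted p = 0.0117; with the pool block 3.36, adjusted p = 0.0743). Over 10 libraries Gpr183 (2.56, SE 0.25, adjusted p = 0.000575), Cx3cr1 and Ccr2 were higher. Ccr9 was lower, at -2.27 (SE 0.46, adjusted p = 0.029) beside -2.11 (SE 0.66, adjusted p = 0.195) over 12. The called shares of these 19 receptors were 5.26% over 12 and 21.1% over 10, beside 1.42% and 2.47% of all genes.

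Of 24 pattern recognition receptors 3 were higher over 12 libraries (Tlr1, Ddx58 and Sting1) and 5 over 10, with Tlr7 and Ifih1 added. The called shares were 12.5% over 12 libraries and 20.8% over 10. For the maturation genes below they were 12% in both fits, and for the immediate early and heat shock genes 8.7% and 17.4%. Among all genes they were 1.42% and 2.47%. Tlr1, which senses bacterial lipopeptides with Tlr2, rose from 7.20, 7.45 and 6.82 to 40.6, 30.7 and 31.8 CPM in cDC1 and had 2.51 (SE 0.30, adjusted p = 0.00118) over 12 libraries and 2.72 (SE 0.27, adjusted p = 0.000593) over 10. Of 25 maturation genes Socs3 (2.93, SE 0.41, adjusted p = 0.00272), Nfkbia (2.36, SE 0.44, adjusted p = 0.0172) and Tnfaip3 (2.22, SE 0.41, adjusted p = 0.0162), all feedback inhibitors of cytokine or NF-κB signalling, were higher over 12 libraries. Over 10 they were higher again, at 2.86 (SE 0.44, adjusted p = 0.00706), 1.75 (SE 0.30, adjusted p = 0.0124) and 2.28 (SE 0.48, adjusted p = 0.0362). Nfkbia (2.29, adjusted p = 0.149) and Tnfaip3 (2.21, adjusted p = 0.0688) did not pass over 12 with the pool block. Of 23 immediate early and heat shock genes, which respond to handling, Egr1 (2.39, SE 0.37, adjusted p = 0.00555) and Ier2 (1.51, SE 0.31, adjusted p = 0.0284; pool block 1.48, adjusted p = 0.0991) were higher over 12 libraries. Over 10 Egr1 had 2.37 (SE 0.30, adjusted p = 0.00236) and Ier2 1.36 (SE 0.24, adjusted p = 0.013), and Atf3 (1.79 (SE 0.34, adjusted p = 0.0204), beside 1.37 (SE 0.44, adjusted p = 0.208) over 12) and Zfp36 were higher as well. The part of this list in other results was not tested.

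MHC class I genes (21), cell cycle genes (26) and mitochondrially encoded mRNAs (13) had no interaction call over 12 or 10 libraries with edgeR, with medians of -0.16, 0.14 and -0.997 over 12. Over the 8 libraries not numbered 1 they had 10 (47.6%), 12 (46.2%) and 11 (84.6%) calls, beside 38.3% of all genes, and all 11 mitochondrial ones were lower. Of 16 MHC class II genes Lgmn, a lysosomal protease, was called over both fits, at 1.32 (SE 0.24, adjusted p = 0.016) over 12 and 1.25 (SE 0.23, adjusted p = 0.0174) over 10, though not over 12 with the pool block (1.30, adjusted p = 0.0888).

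**Figure D5:**
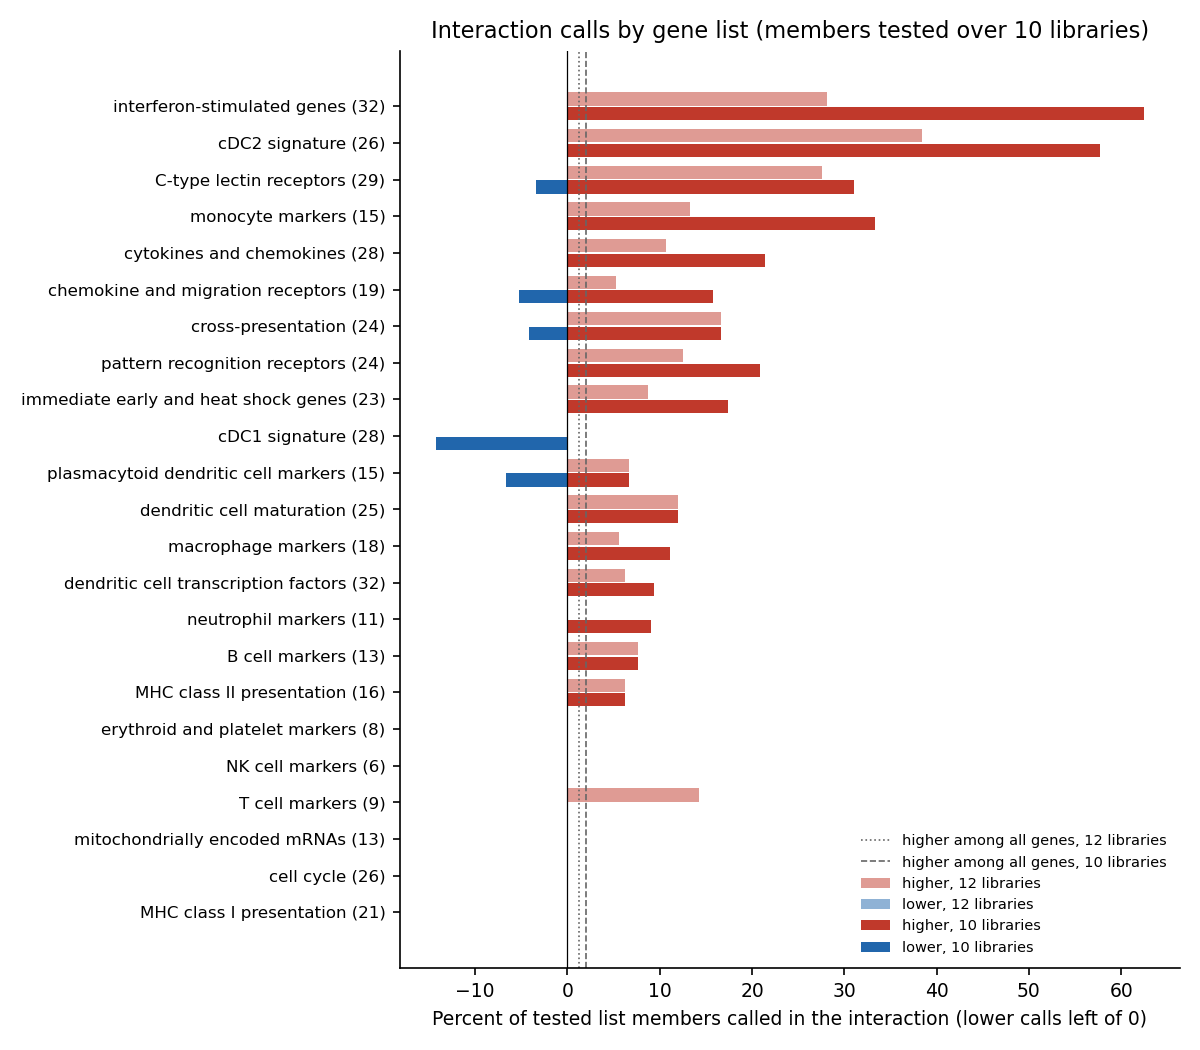
Percent of the tested members of 23 gene lists called in the interaction over 12 libraries (pale) and 10 libraries (dark), with higher calls to the right of 0 and lower calls to the left; numbers in brackets are members tested over 10 libraries. Dotted and dashed lines give the share called higher among all genes, 1.27% and 2.03%; interferon-stimulated genes reach 62.5% over 10 libraries and the cDC2 signature 57.7%.

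Markers of other cell types moved with the contrast in part. In bulk libraries, more cells of a type and more RNA per cell cannot be told apart. The monocyte list had 2 of 15 members higher over 12 libraries, Ms4a4c (2.60, SE 0.29, adjusted p = 0.000842) and Ms4a6c (1.94, SE 0.32, adjusted p = 0.00812), and 5 over 10, where Ms4a4c had 2.71 (SE 0.30, adjusted p = 0.00113) and Ms4a6c 1.80 (SE 0.29, adjusted p = 0.00896), with Cx3cr1, Ccr2 and Lyz2 added. Its summed level was 3167 to 3671 CPM in WT cDC1, 5754 to 7076 in KO cDC1, 5483 to 7964 in WT cDC2 and 5003 to 6587 in KO cDC2. Of the macrophage markers Cd163 was higher over both fits and Spic (1.72, SE 0.27, adjusted p = 0.00867) over 10 (beside 1.62, SE 0.49, adjusted p = 0.186 over 12), with summed levels of 276 to 462, 401 to 489, 488 to 831 and 582 to 774 CPM in the same order. Of the plasmacytoid markers Lair1 was higher over both, at 2.04 (SE 0.31, adjusted p = 0.00419) over 12 and 2.09 (SE 0.27, adjusted p = 0.00245) over 10, and Ccr9 was lower over 10. The called shares over 12 and 10 libraries were 13.3% and 33.3% of the monocyte list. They were 5.56% and 11.1% of the macrophage list and 6.67% and 13.3% of the plasmacytoid list. Among all genes they were 1.42% and 2.47%.

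Lymphoid and other markers gave 1 call each at most. Fcrla, of the B cell list, was higher, at 3.36 (SE 0.74, adjusted p = 0.0455) over 12 libraries and 1.96 (SE 0.34, adjusted p = 0.0128) over 10, though not over 12 with the pool block (3.24, adjusted p = 0.193). It stood at 41.7, 42.7 and 42.7 CPM in WT cDC1 and 331, 269.5 and 288 CPM in KO cDC1. The B cell list, of which Fcrla is part, summed to 356 to 447 CPM in WT cDC1 and 600.1 to 679 CPM in KO cDC1. Over 10 libraries the fitted change in cDC1 was above 0 for 4 of its 13 tested members, and 1 rose by the test. Cd8b1, of the T cell list, was called over 12 libraries (4.96, SE 1.08, adjusted p = 0.0423), not with the pool block (4.52, adjusted p = 0.333) and not over 10 (3.53, SE 1.08, adjusted p = 0.164). It stood at 0.715, 2.35 and 1.45 and 25.7, 33.2 and 34.9 CPM in WT and KO cDC1. The T cell sums, which include Cd8b1, were 8.30 to 13.1 and 30.6 to 43.3 CPM. Over 10 libraries the fitted change in cDC1 was above 0 for 3 of the 9 tested members of the T cell list, and 1 rose by the test. Csf3r, of the neutrophil list, was higher over 10 libraries (2.55, SE 0.48, adjusted p = 0.0198). NK cell and erythroid lists had no interaction call with edgeR in either fit. The NK cell list summed to 79.7 to 101 CPM in WT cDC1 and 156 to 183 CPM in KO cDC1, without overlap. In WT cDC2 it summed to 25.7 to 60.1 CPM and in KO cDC2 to 30.0 to 32.8 CPM. Over 10 libraries 2 of its 6 members rose in cDC1, where 5.73% of all genes did. The part of such cells in the results was not tested.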

How the data were processed

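RNA was sequenced from 12 sorted spleen libraries (poly(A) selection, TruSeq, per the labels' protocols). The deposited values are raw counts of reads per gene, made by the authors with featureCounts on GRCm38/mm10, per the submitters' processing notes; no version is given in the sources used here. Counts were used as deposited, for 27179 genes. Gene IDs were matched to RefSeq symbols for 25275 genes and to GENCODE alone for 18, and 1886 had none. Genes passing filterByExpr were fitted with 4 group means by edgeR 4.0.16 (TMM scaling, robust quasi-likelihood test, R 4.3.3), with Benjamini-Hochberg adjustment over all genes tested and 0.05 as the threshold. CPM values use the scaled library totals of the 12-library fit. The scripts were tested on simulated data.

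The mouse pool joins 1 cDC1 and 1 cDC2 library of the same animals, per the labels. Residuals of the 2 libraries of a pool correlated at 0.259, 0.143 and 0.144 in KO and at -0.205, -0.111 and -0.068 in WT pools 1, 2 and 3. The block was an alternative, with DESeq2 1.42.0, limma 3.58.1 voom, other scalings, filters, a gene length offset and leaving out each library. No 2 libraries agreed within sampling noise. Labels call the replicates biological, so p-values of the main fit measure the spread between libraries of a group, each from another pool. That fit treats all libraries as independent and does not measure the spread of the cDC1 to cDC2 difference within pools.

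The text names a fixed panel (Zfp366, Zeb2, Zbtb46, Nfil3, Irf4, Irf8, Il12b, Id2, Bcl6 and Batf3), the 12 largest changes in each direction among genes called in either fit at a mean of 5 CPM or more in a group (no predicted genes or receptor segments), and up to 3 members of each list by smallest interaction p in either fit. Ccr2, Cd72, Fcgr2b, Ifit3, Lyz2, Mx2, Oasl1, Plpp1, Ptger3, S100a10, Sting1, Tlr7, Tnfsf14, Zfp36 and the genes whose promoters are shown were chosen after their values were seen. The contrast, its members and the gene lists were chosen with earlier results of these data known. Genes near 1 CPM rest on few reads. Some items are not reported here.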

Additional observations from a re-analysis of the deposited data

Results flagged for a closer look

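Results are listed here because the genotype effect differed between cDC1 and cDC2 by the test of the interaction itself (edgeR's quasi-likelihood test, adjusted p below 0.05). This held for 190 genes over 12 libraries and for 336 over 10. Of the genes named above, 50 were called over 12 libraries and 22 more over 10 alone, and those reported here are given with their log2 interaction.

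Among those over 12 libraries, higher values above the middle of the list were those of Sv2b (10.22), Klrb1b (10.10), Gria3 (6.95), Abca6 (6.13), Spon1 (5.99), Clec4b1 (5.59), Skint3 (5.50), Cd163 (5.32), Oas3 (5.30), Clec4a2 (5.19), Cd8b1 (4.96), Ccl9 (4.95), Lifr (4.95), Oasl2 (4.91), Itgam (4.76), Pla2g7 (4.62), Fcer1g (3.72), Dtx1 (3.66) and Fcrla (3.36). The smaller higher values were those of Cybb (3.33), Gpr183 (3.19), Ddx58 (3.14), Irf4 (2.93), Socs3 (2.93), Cd209a (2.61), Ms4a4c (2.60), Tlr1 (2.51), Gbp2 (2.46), Egr1 (2.39), Nfkbia (2.36), Ltb (2.30), Tnfaip3 (2.22), Lair1 (2.04), Ms4a6c (1.94), Ier2 (1.51), Irf1 (1.48) and Lgmn (1.32). Lower over 12 libraries were Itm2a (-6.09), Dbn1 (-3.60), Mras (-3.49), Ltbp2 (-3.36), Tpm2 (-3.25), Bst1 (-2.94), Cbr3 (-2.91), Spry1 (-2.71), Icos (-2.07), Ubtd2 (-2.05), Adam8 (-1.97) and Slc11a1 (-1.93).

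Over 10 libraries alone, Cd101 (5.34), Hs3st1 (5.28), Oas2 (5.09), Csf3r (2.55), Cx3cr1 (2.35), Ccl3 (2.18), Ifih1 (1.85), Atf3 (1.79), Spic (1.72) and Irf7 (1.69) were higher. Lower over 10 alone were Fndc5 (-5.37), Cltrn (-4.76), Morn1 (-4.70), Klri2 (-3.72), Ttc39a (-3.54), Klri1 (-3.39), Tubb2b (-3.29), Apold1 (-3.24), Cd24a (-2.38), Ccr9 (-2.27), Clec9a (-2.15) and Cadm1 (-2.03). These calls rest on 2 cDC2 libraries per genotype, since the 2 cDC2 libraries numbered 1 are left out.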

How the results depend on the processing

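Of the 50 named genes called over 12 libraries, 29 were called under all 23 alternatives, and of 67 over 10 libraries 36 were called under all 21; none of them changed sign. With the mouse pool as replicate block 15 of the 50 and none of the 67 lost the call, and with the replicate number as replicate block 8 and 3 did.

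The 190 interaction calls over 12 libraries became 480 with DESeq2 (353 higher and 127 lower), 116 with the pool block, 302 with a gene length offset and 5157 without the libraries numbered 1, and leaving out 1 library gave 110 (without WT cDC1 replicate 2) to 501 (without WT cDC1 replicate 1; 372 higher and 129 lower). The 336 calls over 10 became 798 with DESeq2, 4748 with the pool block (2615 higher and 2133 lower), 576 with the length offset and 5157 without the libraries numbered 1, and leaving out 1 library gave 99 (without KO cDC2 replicate 2) to 4869 (without WT cDC1 replicate 1), with 725 (319 higher and 406 lower) without WT cDC2 replicate 2. The 714 calls in cDC1 over 12 libraries became 1318 with DESeq2 and 6438 without the libraries numbered 1, and 318 to 3052 with 1 library left out. The 1206 over 10 became 2119 with DESeq2, 1919 with the length offset and 6438 without the libraries numbered 1, and 608 to 6485 with 1 left out. In cDC2 the 0 calls over 12 became 1039 without the libraries numbered 1; the 122 over 10 became 515 with DESeq2, 188 with voom, 79 with the replicate number as replicate block, 275 with the length offset and 1039 without the libraries numbered 1, and 12 to 819 with 1 left out. The cause of these moves was not tested.

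The Zfp366 interaction was -1.39 with DESeq2 and -1.04 without the libraries numbered 1 over 12 libraries, and over 10 it was -1.44 with DESeq2, -1.01 with the pool block, -1.04 without the libraries numbered 1 and -1.63 to -1.0 with 1 library left out. Values that changed sign, none of them called under the main settings, were these. Over 12 libraries Clec9a (0.06) was -0.011 with DESeq2, -0.68 with voom, -1.08 with the pool block, -0.48 with the number block, -0.018 with the length offset, -2.25 without the libraries numbered 1 and -2.15 to 0.57 with 1 left out. Klri2 (1.37) was -0.78 with the pool block, -4.09 without the libraries numbered 1 and -3.15 to 1.94 with 1 left out. Zbtb46 was 0.078 with library totals, 0.0087 with voom, 0.010 with the pool block, 0.011 with the number block, and -0.19 to 0.14 with 1 left out over 12; over 10 it was 0.049 with library totals and -0.20 to 0.091 with 1 left out. Il12b was 0.71 without the libraries numbered 1 and -1.07 to 0.50 with 1 left out over 12; over 10 it was 0.73 with the pool block, 0.71 without the libraries numbered 1 and -0.85 to 0.73 with 1 left out. Id2 was -0.17 without the libraries numbered 1 over 12, and over 10 it was 0.043 with library totals, 0.23 with the length offset and -0.14 to 0.039 with 1 left out. Batf3 was 0.076 over 12 and 0.24 over 10 with the length offset.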
